A study of Mus musculus with 9 samples.

Results

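Messenger RNA levels of the RAB small GTPases were followed in mast cells grown from mouse bone marrow. The RAB genes were taken by name alone, as every gene whose symbol is Rab followed by a number and at most a short letter or digit suffix, so that regulators and binding partners with Rab in their names were left out. The rule took 49 of the 15109 genes of the deposited table and used no measured value. The cells came from wild-type C57BL/6 mice and were grown for weeks in conditioned medium from WEHI-3 cells, a leukaemia line that secretes interleukin 3, with no sorting step given. Control cells were left untreated. BSA cells were sensitised with an IgE antibody against the hapten DNP and then stimulated with DNP-BSA, the antigen that crosslinks that antibody on its receptor. Taxinine cells had the same sensitisation and antigen, with 1 h of pretreatment with taxinine, a taxane diterpenoid, before the antigen. Each group has 3 libraries. The labels give no taxinine dose, no vehicle, no length of antigen exposure and no group with taxinine alone, so effects of a solvent cannot be told apart from those of taxinine, nor effects of IgE from those of antigen. They call the samples biological replicates without naming separate animals or cultures, so the p-values stand against a sample-to-sample spread that may be only technical.

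RAB proteins are molecular switches of membrane traffic. Bound to GTP they sit on one kind of membrane and recruit effectors such as tethers, motor proteins and lipid kinases; exchange factors load the GTP, GTPase activating proteins end the signal, and prenyl groups at the C terminus hold the protein on the membrane. In mast cells, RAB27 proteins and their partners bring histamine-filled granules to the plasma membrane, RAB5 and RAB7 act on the endosomes that take up the IgE receptor after crosslinking, and RAB32 and RAB38 are known, mostly from pigment cells, for the making of lysosome-related organelles, the class to which mast cell granules belong.

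Total counts were 8975371 to 14116976 per library, so that 3 counts in 1 library correspond to 0.192 to 0.347 CPM (a gene's counts relative to the library total, here with totals scaled by TMM, the trimmed mean of M values). All 12 mast cell markers were measured and summed to 48519.6 to 54236 CPM over the 9 libraries. The antigen response was visible in the immediate early genes Egr2, at 11.1 ± 1.18 CPM in Control and 1345 ± 69.3 in BSA, and Nr4a3, at 3.74 ± 0.42 and 1172 ± 74.6 (mean ± SD, n = 3). Of the 4 eosinophil markers, the 2 measured, led by Siglecf, summed to 12.5 to 14.14 CPM in Control, 23.99 to 28.9 in BSA and 19.0 to 20.8 in Taxinine. The 6 macrophage markers summed to 60.7 to 61.5, 66.6 to 72.2 and 63.7 to 66.1 CPM, and the 3 basophil markers, led by Cd200r3, to 1317 to 1341, 1289 to 1336 and 1200 to 1216 CPM. Megakaryocyte markers, led by Itga2b, which mast cells can also express, summed to 1598 to 1767 CPM. The single measured marker of neutrophils, T cells, B cells and erythroid cells (of 6, 5, 4 and 4 listed) was each below 1 CPM in every library. None of the dendritic cell markers listed was measured. The part of other cells in the results below was not tested, and in bulk samples fewer cells of a type and less RNA per cell cannot be told apart.

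Every RAB gene but Rab39b had counts in all 9 libraries; Rab39b had 0 to 3 counts per library. Mean Control levels were at or above 100 CPM for 14 RAB genes and under 5 CPM for 10. Between genes, levels were compared as CPM per kilobase of merged exon. This length joins every annotated exon of a gene, whichever of them are expressed, so the order below depends on the annotation. Rab27b, with a higher mean Control CPM than Rab38 (488 against 278), stands at rank 12 per kb. Rab44, a large and atypical RAB, was highest in Control at 249 ± 1.43 CPM per kb, with Rab38 second at 176 ± 4.49 and Rab8b, which carries Golgi cargo to the plasma membrane, next at 91.4 ± 3.26. These 3 genes held 37.3% of the summed RAB level per kb. Rab5c (88.7), Rab7 (68.2), Rab37 (60.0), Rab1a (59.0), Rab1b (54.9), Rab2a (54.3) and Rab19 (53.8) followed. The ranges of Rab44, Rab38 and Rab8b in Control did not overlap with each other, whereas Rab8b overlapped with Rab5c and the genes from Rab37 to Rab2a each overlapped with the next in order. In all, 27 pairs of neighbours in the Control order overlapped and 21 did not.

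**Figure D1:**
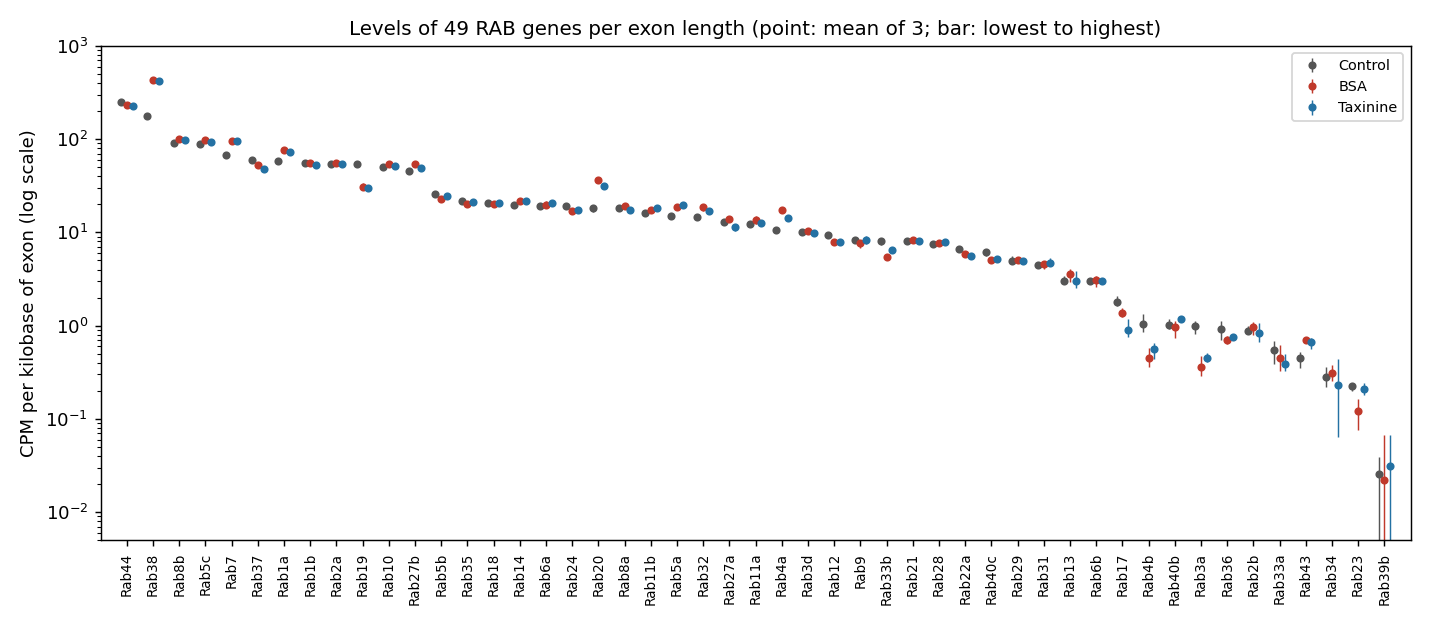
Levels of the 49 RAB genes in CPM per kilobase of merged exon, on a log axis, ordered by the Control mean; points are means of 3 libraries and bars run from the lowest to the highest library. Rab44 and Rab38 stand first and second in Control and change places in BSA and Taxinine.

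With antigen the top of this order changed. Rab38 reached 431 ± 9.73 CPM per kb in BSA and 416 ± 14.7 in Taxinine, against 234 ± 15.1 and 229 ± 1.87 for Rab44. Rab38 thus went from 12.7% of the summed RAB level per kb in Control to 25.4% in both antigen-treated groups, and Rab44 from 18.0% to 13.8% in BSA and 14.0% in Taxinine. Rab20 moved from rank 19 to rank 12 in both, and Rab19 from rank 10 to rank 13. As a share of all counts the RAB genes together were at 0.587 to 0.59% in Control, 0.559 to 0.562% in BSA and 0.55 to 0.557% in Taxinine. The same sum in TMM-scaled CPM was 5301 to 5344, 5932 to 5971 and 5708 to 5799, so whether the family total is read as higher or lower with antigen depends on the scaling.

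Antigen was compared with no treatment to ask which RAB transcripts differ in activated cells. Of the 49 genes, 22 were called in BSA against Control (44.9%), against 34.0% of all genes; a call is a Benjamini-Hochberg adjusted p under 0.05 in edgeR's quasi-likelihood test, adjusted over all 15109 genes. The 12 higher in BSA make 24.5%, against 16.2% of all genes, and the 10 lower make 20.4%, against 17.8%. The BSA and Control libraries did not overlap for 27 RAB genes (55.1%, against 42.9% of all genes), 14 above (28.6%, against 20.2%) and 13 below (26.5%, against 22.7%). Called genes that differed at least 1.5-fold numbered 8 (16.3%, against 12.0%): Rab38, Rab20, Rab4a and Rab43 were higher, and Rab3a, Rab4b, Rab23 and Rab19 lower. The median log2 fold change was 0.04 over the RAB genes and -0.004 over all genes. Of the 22 calls, 16 held with each library left out in turn. The split depends on scaling: with plain library totals, which move the median of all genes to -0.23, 5 RAB genes were called higher (Rab38, Rab20, Rab4a, Rab7 and Rab1a) and 26 lower, and among all genes the higher share of calls went from 47.6% to 13.6%. Plain totals also turn the sign of 19 of the 49 genes from higher to lower: the called Rab5c, Rab8b and Rab14, and Rab1b, Rab2a, Rab2b, Rab3d, Rab6a, Rab6b, Rab8a, Rab10, Rab11a, Rab11b, Rab21, Rab27a, Rab28, Rab29, Rab31 and Rab34, which were not called. DESeq2 called 12 RAB genes higher and 8 lower, and of all genes 2221 higher and 2082 lower. Directions below are on the TMM scale unless stated.

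**Figure D2:**
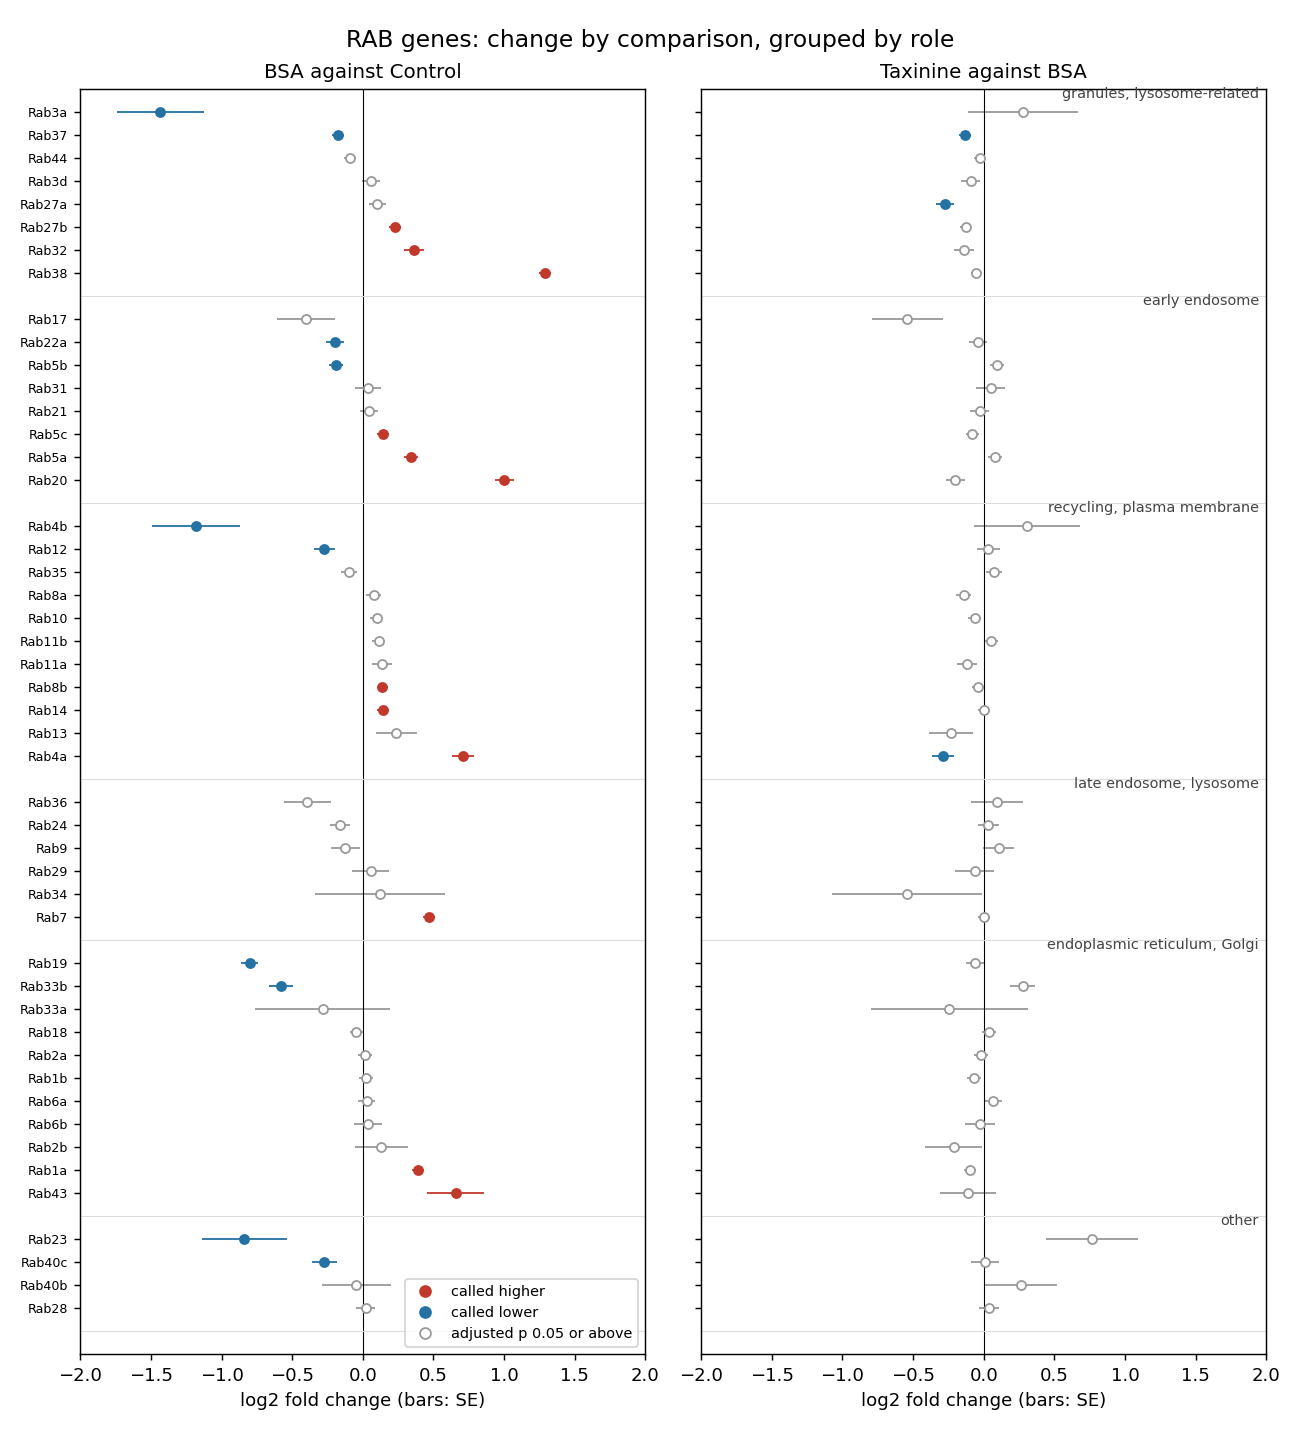
Log2 fold change with its standard error for 48 RAB genes, grouped by role, in BSA against Control and in Taxinine against BSA; filled points are called genes. Rab39b, with at most 3 counts in any library, is left out; antigen differences reach from -1.44 for Rab3a to 1.29 for Rab38, and the 3 genes called in Taxinine against BSA lie between -0.29 and -0.13. With plain library totals BSA against Control shifts left and 19 of the genes drawn go from above to below 0, among them Rab5c, Rab8b and Rab14, which are called here; in Taxinine against BSA 2 change sign, Rab2a and Rab6b.

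Secretory granules and lysosome-related organelles are the site of 8 of the measured RAB genes. In BSA 3 were higher and 2 lower (62.5% called, against 34.0% of all genes). Rab38 (chr7:88430273-88491572, plus strand, GRCm38), a RAB of lysosome-related organelles, was at 286, 273 and 275 CPM in the Control libraries, at 693, 663 and 683 in BSA and at 629.5, 674 and 663 in Taxinine. Every antigen-treated library stood far above every Control library. The log2 fold change in BSA against Control was 1.29 ± 0.04 (SE), a 2.44-fold difference (edgeR adjusted p = 3.89e-28). Its closest relative Rab32 (chr10:10545002-10558265, minus strand), with a like role, was at 35.6, 31.8 and 34.2 CPM in Control, at 47.1, 40.1 and 43.1 in BSA and at 38.4, 36.8 and 42.8 in Taxinine. The BSA libraries were all higher than the Control libraries, by 0.36 ± 0.07 on the log2 scale (adjusted p = 5.66e-05), and with plain totals the call was lost (log2 0.13, adjusted p = 0.108).

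Rab27b, which docks granules under the plasma membrane, was at 508, 468 and 488 CPM in Control, at 588, 570.5 and 557 in BSA and at 540.3, 504 and 526 in Taxinine. The BSA libraries lay above both other groups (log2 0.23 ± 0.04 against Control, adjusted p = 1.53e-05), although with plain totals the difference from Control was 0.00 (adjusted p = 0.979). Rab27a, its relative with a shared function, was at 50.5, 52.0 and 48.7 CPM in Control, at 55.1, 52.8 and 54.4 in BSA and at 47.9, 40.6 and 46.1 in Taxinine. Its log2 difference of 0.10 ± 0.06 between BSA and Control did not pass (adjusted p = 0.208) and was -0.13 with plain totals.

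Rab37 (chr11:115091431-115162236, plus strand), known from mast cell granules, was at 312, 316 and 331 CPM in Control, at 279, 275 and 296 in BSA and at 257, 254 and 263 in Taxinine. The 3 groups formed separate steps with no overlap, and the fall with antigen was 0.18 ± 0.04 on the log2 scale (log2 fold change -0.18, adjusted p = 8.90e-04). Rab3a, a RAB of regulated exocytosis best known from synapses, was near the low end at 2.31, 2.495 and 1.83 CPM in Control, at 1.06, 0.709 and 0.637 in BSA and at 0.926, 1.14 and 0.907 in Taxinine, from 7 to 39 counts per library. All BSA libraries were lower than all Control libraries (log2 fold change -1.44 ± 0.31, adjusted p = 1.95e-04). Rab3d, the RAB3 member of mast cell granules, was the far more counted of the pair at 39.0, 44.0 and 42.6 CPM in Control, at 44.5, 44.4 and 42.0 in BSA and at 41.3, 40.3 and 41.3 in Taxinine. Control and BSA overlapped, and its log2 difference of 0.06 ± 0.06 did not pass (adjusted p = 0.516) and was -0.17 with plain totals.

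Rab44, which in mice takes part in mast cell degranulation, was at 1253, 1264 and 1267 CPM in Control, at 1097, 1240.1 and 1216 in BSA and at 1155, 1173 and 1159 in Taxinine. Every BSA library was below every Control library, with BSA replicate 1 lowest, but the difference of -0.09 ± 0.04 did not pass (adjusted p = 0.0753). It did pass without BSA replicate 2 (-0.13, adjusted p = 0.0142) and without BSA replicate 3 (-0.11, adjusted p = 0.0459), and with plain totals (-0.32, adjusted p = 9.37e-09).

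**Figure D3:**
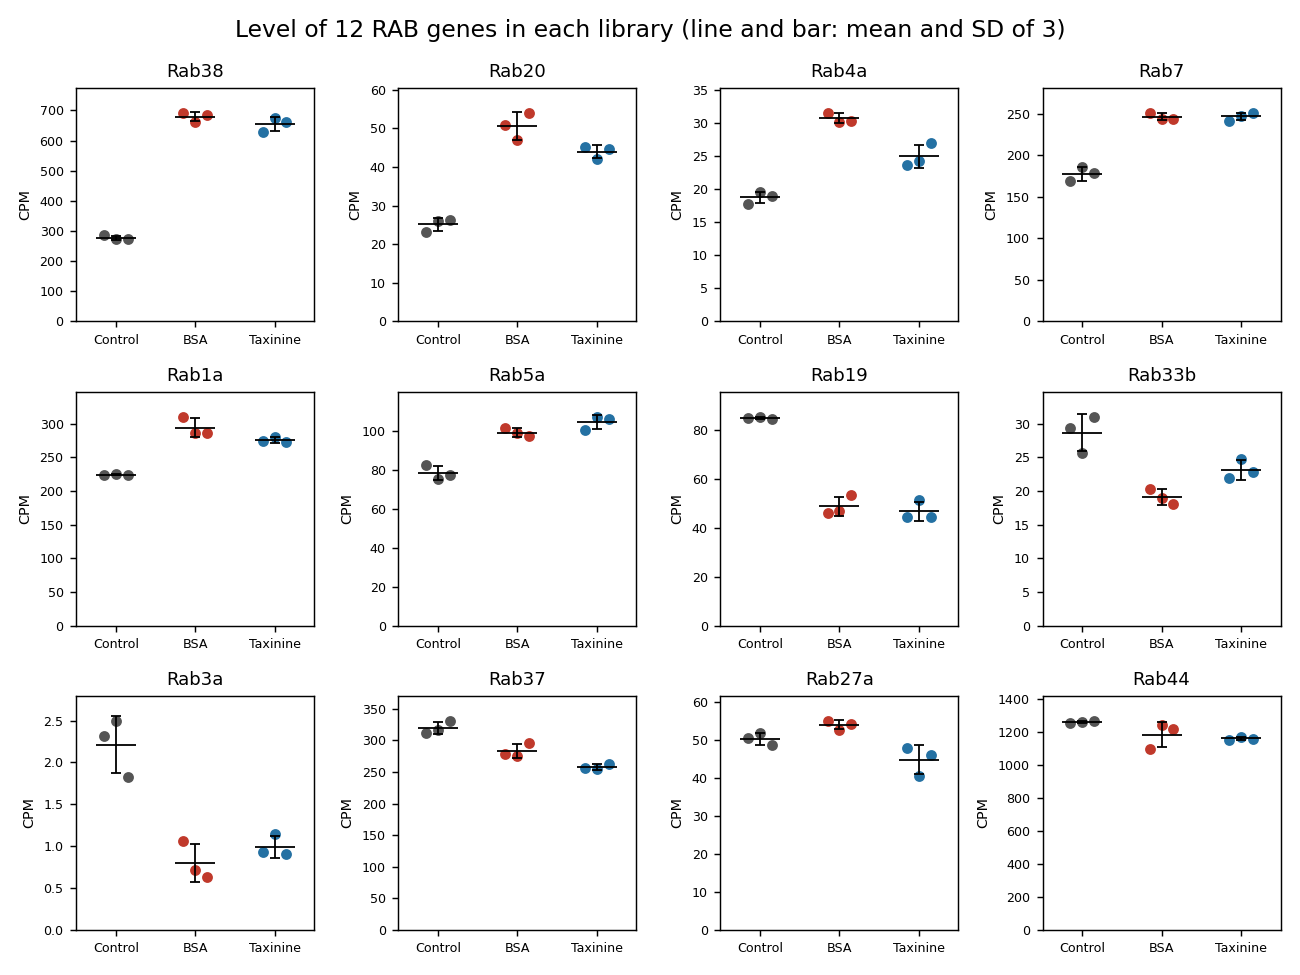
Level of 12 RAB genes in each library in TMM-scaled CPM, from 0; the line is the mean and the bar the SD of 3 libraries. Rab38, Rab20, Rab4a, Rab7, Rab1a and Rab5a are higher in every BSA library than in every Control library and Rab19, Rab33b, Rab3a and Rab37 lower; with plain totals Rab5a was no longer called (log2 0.11) and Rab27a changed direction in BSA against Control.

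Early endosomes are the site of 8 RAB genes, of which 3 were higher and 2 lower in BSA (62.5% called, against 34.0% of all genes). The RAB5 genes split. RAB5 is the switch of endosome fusion after uptake at the plasma membrane, and the 3 genes encode closely related proteins. Rab5a was called higher, Rab5b lower and Rab5c slightly higher. The 250 bases before the RefSeq start of each gene are shown, 5′ to 3′ on the gene's strand (RefSeq, GRCm38.p6). They are chr17:53478984-53479233 on the plus strand for Rab5a, chr10:128696269-128696518 on the minus strand for Rab5b and chr11:100738216-100738465 on the minus strand for Rab5c. Whether these sequences bear on the levels was not tested. Capitals mark matches to the response element and the E-box named after the sequences. The windows of Rab5b and Rab5c hold none of the 6 motifs searched. Their GC contents are 64.0%, 59.2% and 63.2% in the order shown, against a median of 52.4% over all promoters.
Rab5a: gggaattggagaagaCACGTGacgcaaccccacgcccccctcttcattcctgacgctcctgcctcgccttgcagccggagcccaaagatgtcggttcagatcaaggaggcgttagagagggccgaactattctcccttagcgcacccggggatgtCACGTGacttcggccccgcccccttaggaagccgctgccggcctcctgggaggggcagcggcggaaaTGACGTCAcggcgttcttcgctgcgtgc
Rab5b: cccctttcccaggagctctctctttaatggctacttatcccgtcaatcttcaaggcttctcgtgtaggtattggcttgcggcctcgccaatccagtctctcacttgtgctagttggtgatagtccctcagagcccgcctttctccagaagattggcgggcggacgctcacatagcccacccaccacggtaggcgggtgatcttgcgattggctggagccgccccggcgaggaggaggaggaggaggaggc
Rab5c: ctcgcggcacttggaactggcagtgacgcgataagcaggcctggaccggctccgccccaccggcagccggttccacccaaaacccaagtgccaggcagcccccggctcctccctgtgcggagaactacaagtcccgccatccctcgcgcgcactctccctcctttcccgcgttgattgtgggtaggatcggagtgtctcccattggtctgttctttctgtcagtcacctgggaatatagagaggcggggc
The motifs were searched on both strands of 32851 RefSeq promoter windows of this length. The Rab5a window holds the cyclic AMP response element TGACGTCA at bases 223 to 230 of the window, present in 1.55% of all windows and in no other RAB window, and the E-box CACGTG at bases 16 to 21 and 156 to 161, present in 6.02% of all windows. The E-box nearer the start lies within the CLEAR palindrome of lysosomal gene promoters, at bases 154 to 163 (its outer bases are in lower case), present in 0.24% of all windows and otherwise in Rab21 alone among RAB windows. Of the 50 RAB windows, which cover 41 of the 49 genes, 5 held CACGTG (Rab5a, Rab20, Rab21, Rab23 and Rab27a). In BSA against Control these genes were at log2 0.34, 1.00, 0.04, -0.84 and 0.10 in that order. A further E-box, CATGTG, was held by 4 windows (12.3% of all windows). The AP-1 site TGANTCA was held by 1 (Rab34, 6.75% of all) and the EGR site GCGTGGGCG by none (0.536% of all).

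Rab5a was at 82.4, 75.1 and 77.2 CPM in Control, at 101, 98.7 and 97.1 in BSA and at 101, 107 and 106 in Taxinine. All antigen-treated libraries lay above Control (BSA against Control log2 0.34 ± 0.05, adjusted p = 6.56e-07), and with plain totals the call was lost (0.11, adjusted p = 0.0594). Rab5b was at 109.8, 108 and 109.8 CPM in Control, at 98.2, 95.0 and 94.0 in BSA and at 107, 103 and 97.8 in Taxinine. The BSA libraries lay below all Control libraries (-0.19 ± 0.05, adjusted p = 2.03e-03). Rab5c was at 190.3, 201 and 192 CPM in Control, at 223, 208 and 214 in BSA and at 192, 211 and 206 in Taxinine. Its difference in BSA of 0.14 ± 0.05 (adjusted p = 0.0109) became -0.08 with plain totals. Leaving out Control replicate 3 gave 0.13 (adjusted p = 0.0569), and leaving out BSA replicate 1 gave 0.12 (adjusted p = 0.0727), neither called.

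Rab20 (chr8:11453518-11478710, minus strand), a RAB of phagosome and endosome maturation, was at 23.3, 26.0 and 26.4 CPM in Control, at 50.9, 47.0 and 54.1 in BSA and at 45.1, 42.2 and 44.7 in Taxinine. Each BSA library was higher than each Control library, with a log2 fold change of 1.00 ± 0.07 (2.0-fold, adjusted p = 4.33e-16). Of the 100-base words of its exons, 20.0% also occur in a long noncoding RNA gene on the opposite strand. Rab22a, which sorts endosomal cargo, was at 47.1, 48.2 and 48.5 CPM in Control and at 41.7, 40.03 and 43.9 in BSA, a fall of 0.20 ± 0.06 (log2 fold change -0.20, adjusted p = 0.0092) whose call was lost without BSA replicate 2 (-0.17, adjusted p = 0.0597). Rab17, Rab21 and Rab31, RABs of epithelial transcytosis, integrin uptake and traffic from the Golgi to endosomes, did not pass, at log2 differences of -0.40, 0.04 and 0.04.

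Recycling and delivery to the plasma membrane are served by 11 RAB genes. In BSA 3 were higher and 2 lower (45.5% called, against 34.0% of all genes). Rab4a (chr8:123805985-123835287, plus strand), which returns receptors from early endosomes by the fast route, was at 17.8, 19.5 and 19.0 CPM in Control, at 31.6, 30.2 and 30.4 in BSA and at 23.7, 24.2 and 27.0 in Taxinine. The 3 groups formed separate levels, BSA highest (0.71 ± 0.08 against Control, adjusted p = 3.90e-10). Rab4b, its relative, was at 2.64, 1.79 and 1.70 CPM in Control, at 1.14, 0.709 and 0.818 in BSA and at 1.16, 0.856 and 1.28 in Taxinine, from 9 to 40 counts per library. Its BSA libraries lay below Control (-1.18 ± 0.31, adjusted p = 2.28e-03), but 49.3% of its 100-base words also occur in another gene model that overlaps it, so its reads may be split.

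Rab8b was at 450.4, 422 and 426 CPM in Control, at 485, 479.7 and 463 in BSA and at 468, 465 and 455 in Taxinine; its difference of 0.14 ± 0.04 (adjusted p = 6.01e-03) became -0.09 with plain totals. Rab14, between Golgi and endosomes, was at 282, 259 and 264 CPM in Control and at 298, 311 and 278 in BSA, with overlapping groups. Its difference of 0.14 ± 0.04 (adjusted p = 0.0107) became -0.09 with plain totals. It was not called when Control replicate 3 was left out (0.13, adjusted p = 0.0583), nor when BSA replicate 2 was (0.10, adjusted p = 0.0898). Rab12, which takes receptors from recycling endosomes to lysosomes, was at 28.4, 28.3 and 29.1 CPM in Control and at 23.4, 23.5 and 24.2 in BSA, separate groups (-0.27 ± 0.07, adjusted p = 3.23e-03). Rab8a, Rab10, Rab11a, Rab11b, Rab13 and Rab35, which recycle membrane or carry cargo to the surface, did not pass, at log2 differences from -0.10 for Rab35 to 0.24 for Rab13.

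Late endosomes, lysosomes and autophagy are served by 7 RAB genes. Only Rab7 passed the test of BSA against Control (14.3% called, against 34.0% of all genes). Rab7 (chr6:87999106-88045270, minus strand), the switch of fusion with lysosomes, was at 169, 186 and 178 CPM in Control, at 252, 244 and 244 in BSA and at 242, 247 and 252 in Taxinine. The antigen-treated libraries lay above every Control library and overlapped with each other (BSA against Control 0.47 ± 0.04, adjusted p = 5.48e-12); 9.17% of its 100-base words also occur in a processed pseudogene or an antisense transcript. Rab9, Rab24, Rab29, Rab34 and Rab36 had log2 differences from -0.39 for Rab36 to 0.12 for Rab34, none of them called, and Rab39b was too low to read.

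The endoplasmic reticulum and Golgi are served by 11 RAB genes. In BSA 2 were higher and 2 lower (36.4% called, against 34.0% of all genes). Rab1a (chr11:20201432-20226856, plus strand), needed for transport from the endoplasmic reticulum to the Golgi, was at 224, 225 and 224 CPM in Control, at 309.96, 285 and 287 in BSA and at 274, 281 and 272 in Taxinine. The groups did not overlap, BSA being highest (0.39 ± 0.04 against Control, adjusted p = 3.28e-10). Rab1b, its relative with the same role, was at 121, 134 and 119 CPM in Control and at 128, 122 and 130.05 in BSA, overlapping (0.02 ± 0.05, adjusted p = 0.772). Rab19 (chr6:39381175-39390380, plus strand), a Golgi RAB, was at 84.7, 85.2 and 84.1 CPM in Control, at 45.9, 46.9 and 53.2 in BSA and at 44.3, 51.2 and 44.3 in Taxinine. Every antigen-treated library was lower than every Control library (BSA against Control -0.80 ± 0.06, a change of -42.7%, adjusted p = 6.84e-15).

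Rab33b (chr3:51483920-51496232, plus strand), a Golgi RAB that binds the autophagy protein ATG16L1, was at 29.3, 25.7 and 31.0 CPM in Control, at 20.3, 19.0 and 18.0 in BSA and at 21.9, 24.8 and 22.8 in Taxinine. BSA was lowest and the groups did not overlap (-0.58 ± 0.08 against Control, adjusted p = 2.56e-07). Rab43, a Golgi RAB, was at 2.91, 2.56 and 1.96 CPM in Control and at 3.57, 4.18 and 4.00 in BSA (0.66 ± 0.20, adjusted p = 7.94e-03); the call was lost without Control replicate 3 (0.52, adjusted p = 0.0681) and with plain totals (0.43, adjusted p = 0.067). Since 73.8% of its 100-base words also occur in an overlapping gene model on the same strand, its counts are uncertain. Rab2a, Rab2b, Rab6a, Rab6b, Rab18 and Rab33a, which act in Golgi, lipid droplet and retrograde traffic, did not pass, at log2 differences from -0.29 for Rab33a to 0.13 for Rab2b.

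Of the 4 remaining genes, 2 were called lower in BSA and none higher. Of all genes, 17.8% were called lower and 34.0% in either direction. Rab23, known from Hedgehog signalling and cilia, was at 1.98, 1.92 and 1.64 CPM in Control, at 1.37, 1.02 and 0.637 in BSA and at 1.504, 2.00 and 1.74 in Taxinine, from 7 to 30 counts per library. BSA was lowest with no overlap (-0.84 ± 0.30, adjusted p = 0.0264). That call was lost without Control replicate 1 (-0.78, adjusted p = 0.072), Control replicate 2 (-0.81, 0.0644), BSA replicate 2 (-0.83, 0.0605) or BSA replicate 3 (-0.62, 0.148), and in DESeq2 (-0.84, 0.0858). Rab40c, a RAB with a SOCS box that joins ubiquitin ligases, was at 20.8, 18.9 and 17.5 CPM in Control and at 15.8, 15.3 and 16.3 in BSA (-0.27 ± 0.09, adjusted p = 0.0147), and it was not called when Control replicate 1 (-0.21, adjusted p = 0.111) or BSA replicate 2 (-0.25, adjusted p = 0.0549) was left out, nor in DESeq2 (-0.26, adjusted p = 0.0674). Rab28 and Rab40b, at differences of 0.02 and -0.05, did not pass.

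Relatives within the family were also set against each other inside each library, as the log2 ratio of their counts, which no library scaling can move. Of 13 pairs of paralogs, the BSA and Control ratios did not overlap for 7. Of single genes, 42.9% of all did not overlap between these groups, and no share over other gene pairs was computed. The ratios among Rab5a, Rab5b and Rab5c share genes, so the pairs are not independent. With 3 libraries against 3 the exact two-sided permutation p cannot go below 0.1, which each of the 7 reached. The Rab4a to Rab4b ratio was at 2.73, 3.42 and 3.45 in Control and at 4.75, 5.34 and 5.14 in BSA, a difference of 1.87. It rests on few counts of Rab4b, 15, 9 and 9 in the BSA libraries, and reads of Rab4b may be split with another gene model. The Rab5a to Rab5b ratio was at -0.41, -0.52 and -0.51 in Control and at 0.05, 0.06 and 0.05 in BSA, a difference of 0.53. Rab5a thus went from fewer to slightly more counts than Rab5b. The Rab1a to Rab1b ratio was higher in BSA by 0.36 and the Rab5a to Rab5c ratio by 0.20. The ratios of Rab3a to Rab3d, Rab5b to Rab5c and Rab27a to Rab27b were lower, at differences of -1.49, -0.33 and -0.13. Rab3a had only 14, 9 and 7 counts in the BSA libraries. Rab2a to Rab2b, Rab6a to Rab6b, Rab8a to Rab8b, Rab11a to Rab11b, Rab33a to Rab33b and Rab40b to Rab40c overlapped.

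**Figure D4:**
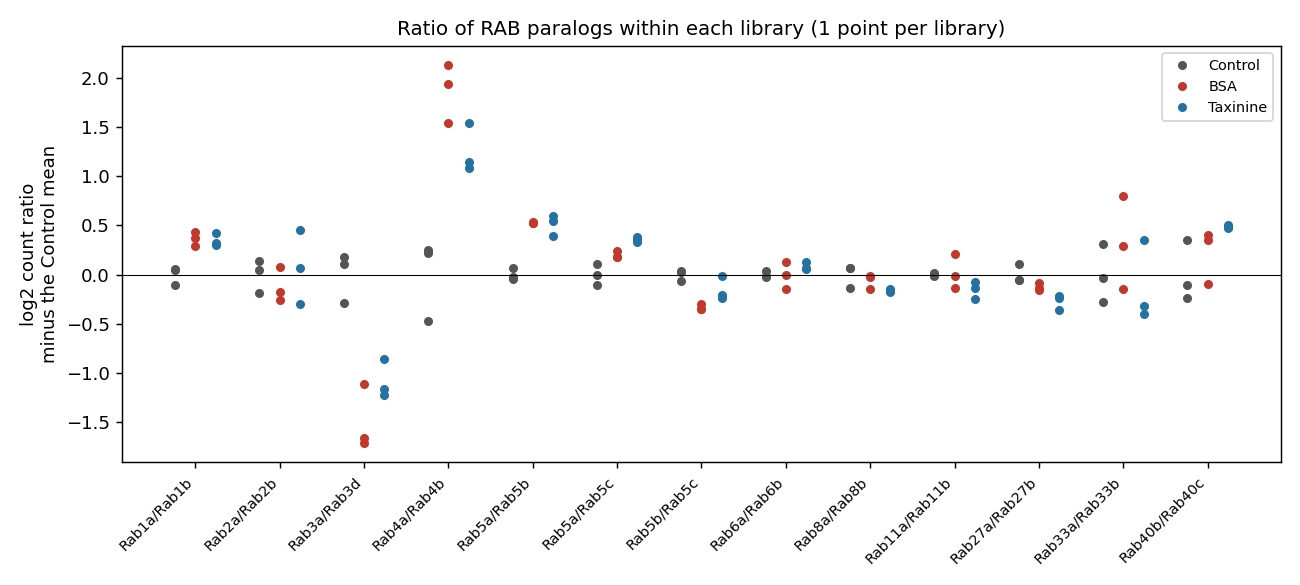
Log2 ratio of the counts of 2 RAB paralogs within each library, minus the Control mean of that pair; each point is a library. Rab4a over Rab4b and Rab5a over Rab5b are higher and Rab3a over Rab3d is lower in every antigen-treated library than in every Control library. Rab4b had 9 to 40 counts per library and Rab3a 7 to 39.

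Taxinine was compared with BSA to ask which antigen-treated levels differ with the pretreatment. No RAB gene was called higher and 3 were called lower, Rab27a, Rab4a and Rab37 (6.12% of the 49, against 4.12% of all genes called lower, 2.86% called higher and 6.98% called in either direction). At an unadjusted p under 0.05, 2 were higher and 8 lower (4.08% and 16.3%, against 9.4% and 10.4% of all genes). DESeq2 called 0 higher and 4 lower, against 1.92% and 3.46% of all genes, and limma on the deposited log2 values called 1 higher and 2 lower, against 4.7% and 3.24%. None was called at 1.5-fold or more, against 0.616% of all genes. The groups did not overlap for 14 genes (28.6%, against 23.9% of all genes), of which 4 were above (8.16%, against 11.5%) and 10 below (20.4%, against 12.4%). The median log2 fold change was -0.03 over the RAB genes and 0.00 over all genes.

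Rab27a, whose values per library stand above, was lower in each Taxinine library than in each BSA library (log2 fold change -0.27 ± 0.06, a change of -17.2%, adjusted p = 4.93e-03). Without Taxinine replicate 2, its lowest library, the difference was -0.21 and not called (adjusted p = 0.0919). Rab4a was lower by 0.29 ± 0.08 (log2 fold change -0.29, adjusted p = 0.0156), again with no overlap; the call was lost without BSA replicate 1 (-0.27, adjusted p = 0.0703), Taxinine replicate 1 (-0.26, 0.0909) or Taxinine replicate 2 (-0.27, 0.0909). Rab37 lay just inside the threshold (-0.13 ± 0.04, adjusted p = 0.0499) and was not called without Control replicate 3, BSA replicate 1 or 3, or any one of the Taxinine libraries (log2 from -0.15 to -0.10, adjusted p from 0.0653 to 0.229), nor with plain totals (-0.11, adjusted p = 0.124). Just outside lay Rab27b (-0.13, adjusted p = 0.0509), Rab33b (0.28, 0.0552) and Rab20 (-0.20, 0.0617), and these too had Taxinine and BSA libraries that did not overlap. Rab27b was called lower under several alternatives, among them DESeq2 (adjusted p = 0.0375), upper quartile scaling in edgeR (0.0357) and the 6 libraries of the comparison only (0.0359). With plain totals (-0.10) and limma (-0.10) it was not called.

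Of the 8 genes of granules and lysosome-related organelles, Rab27a and Rab37 were called lower in Taxinine against BSA. They make 25.0%, against 4.12% of all genes called lower, and neither call held with each library left out in turn. The Taxinine libraries also lay below the BSA libraries for Rab27b (-0.13) and Rab3d (-0.09), which did not pass; groups not overlapping below make up 12.4% of all genes. The groups overlapped for Rab3a (0.28), Rab32 (-0.14), Rab38 and Rab44, and Rab44 was at -0.03, or 0.01 without BSA replicate 2. Rab38 was at -0.05 ± 0.04 and Rab7 at 0.00 ± 0.04 (adjusted p = 0.521 and 0.982), with overlapping groups. Ratios of paralogs within libraries did not overlap for 5 of 13 pairs, each at the smallest possible exact two-sided permutation p of 0.1. Of single genes, 23.9% of all did not overlap between these groups, and no share over other gene pairs was computed. Of the pairs below, Rab5a to Rab5c and Rab5b to Rab5c share Rab5c. The ratios of Rab5a to Rab5c (0.16), Rab5b to Rab5c (0.18) and Rab40b to Rab40c (0.27) were higher in Taxinine, and those of Rab27a to Rab27b (-0.15) and Rab8a to Rab8b (-0.10) lower.

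Taxinine against Control shares its libraries with both other comparisons, so its values stand beside them. It called 21 RAB genes (42.9%, against 33.1% of all genes), 10 higher (20.4%, against 15.9%) and 11 lower (22.4%, against 17.2%), and 13 of the 21 calls held with each library left out in turn. The groups did not overlap for 23 genes (46.9%, against 43.7% of all genes), 11 above (22.4%, against 20.9%) and 12 below (24.5%, against 22.8%), and 6 called genes differed at least 1.5-fold (12.2%, against 10.9%). Side by side, the log2 differences from Control in BSA and in Taxinine were 1.29 and 1.24 for Rab38, 1.00 and 0.80 for Rab20, 0.71 and 0.42 for Rab4a, 0.47 and 0.47 for Rab7, and 0.34 and 0.42 for Rab5a. They were -0.80 and -0.86 for Rab19, -0.58 and -0.30 for Rab33b, -1.44 and -1.16 for Rab3a, and -0.18 and -0.31 for Rab37. Rab17, not called in BSA against Control, was called in Taxinine against Control (-0.95 ± 0.23, adjusted p = 1.01e-03). It was at 3.24, 4.10 and 3.34 CPM in Control, at 2.58, 2.44 and 3.09 in BSA and at 1.504, 1.52 and 2.34 in Taxinine. Its step from BSA to Taxinine, -0.54 ± 0.25, did not pass (adjusted p = 0.212). The same held for the calls of Rab11b (0.17 ± 0.05, adjusted p = 0.00776), Rab27a (-0.17 ± 0.06, 0.0352) and Rab44 (-0.12 ± 0.04, 0.0189): called against Control in Taxinine and not in BSA. Those of Rab27a and Rab44 did not hold with each library left out, and Rab11b was at -0.04 with plain totals.

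The genes that switch RABs on and off were read from lists drawn up from general knowledge. Of 34 exchange factors measured of 40 listed, 6 were higher and 9 lower in BSA (44.1% called, median log2 fold change -0.035; over all genes 34.0% and -0.004). Rabgef1, the exchange factor of RAB5 that in mice restrains mast cell activation through the IgE receptor, was at 113.5, 102 and 105 CPM in Control, at 520.5, 533 and 516 in BSA and at 534.5, 542 and 531 in Taxinine. It differed from Control by 2.29 ± 0.04 (adjusted p = 3.89e-36), more than any RAB gene did. Alternative subunits of the RAB7 exchange factor moved apart: Mon1a rose by 0.48 ± 0.11 (adjusted p = 3.11e-04) and Mon1b fell by 0.59 ± 0.08 (log2 fold change -0.59, adjusted p = 1.77e-07). The call of Mon1a was lost with limma (0.24, adjusted p = 0.0529). Rabif and Dennd1c, which act on secretory and endosomal RABs, changed by -0.40 ± 0.06 and -0.36 ± 0.05. In Taxinine against BSA, 2 were higher, Mon1b (0.30 ± 0.09, adjusted p = 0.0331) and Rabif (0.21 ± 0.06, adjusted p = 0.0396), and none lower (5.88% called, against 6.98% of all genes). Without BSA replicate 1, Taxinine replicate 1 or Taxinine replicate 3 neither was called (Mon1b 0.23, 0.24 and 0.30; Rabif 0.17, 0.22 and 0.21), nor in DESeq2. Mon1b was also lost without BSA replicate 3 (0.27), and Rabif also without Taxinine replicate 2 (0.19), BSA replicate 2 (0.19) or Control replicate 3 (0.21).

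Of 40 GTPase activating proteins measured of 41 listed, 3 were higher and 6 lower in BSA (22.5% called, against 34.0% of all genes, median 0.03). Tbc1d10c, which inactivates RAB35 and is found in blood cells, fell from 51.9 ± 3.22 CPM to 34.5 ± 2.17 (-0.59 ± 0.07, adjusted p = 1.05e-09) and was at 28.4 ± 1.88 in Taxinine (-0.27 ± 0.08 against BSA, adjusted p = 0.0198). Tbc1d17 changed by -0.41 ± 0.06 with antigen. In Taxinine against BSA, Tbc1d23 (0.30 ± 0.07), Rabgap1 (0.21 ± 0.06) and Tbc1d20 (0.17 ± 0.05) were higher and Tbc1d2b (-0.22 ± 0.06) was, with Tbc1d10c, lower (12.5% called, against 6.98% of all genes). Without Taxinine replicate 3 none of the 3 was called higher (Tbc1d23 0.26, Rabgap1 0.21, Tbc1d20 0.18). Without BSA replicate 3 (Tbc1d10c -0.26, Tbc1d2b -0.20) or Taxinine replicate 2 (-0.29 and -0.19) neither was called lower. Of single genes, Tbc1d23 (0.23) and Rabgap1 (0.19) were lost without BSA replicate 3, Rabgap1 (0.19) and Tbc1d10c (-0.23) without Taxinine replicate 1, Tbc1d20 without BSA replicate 1 (0.17), BSA replicate 2 (0.16) or Taxinine replicate 2 (0.14), and Tbc1d10c without BSA replicate 2 (-0.23). Of the 9 genes of prenylation, escort and membrane extraction, none was higher and 2 were lower in BSA (22.2% called, against 34.0% of all genes, median -0.036). Among the 2 was Ggps1, which makes the prenyl donor (-0.21 ± 0.08). Its call was lost without Control replicate 1 (-0.15) or BSA replicate 3 (-0.18), and in DESeq2 (-0.20, adjusted p = 0.0933). None of the 9 was called in Taxinine against BSA.

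Effectors carry the signal on. Of 12 effectors of secretion measured of 19 listed, 33.3% were called in BSA, against 34.0% of all genes (median 0.017). The 2 higher were the RAB27 effector Sytl3 (76.3 ± 3.07 to 132 ± 7.47 CPM, 0.79 ± 0.05, adjusted p = 1.77e-16) and the motor Myo5a (0.18 ± 0.05). The 2 lower were Unc13a (-0.91 ± 0.24) and the RAB27 effector Sytl1 (-0.42 ± 0.14). The call of Myo5a was lost without Control replicate 2 (0.11) and turned to -0.04 with plain totals. That of Sytl1 was lost without BSA replicate 1 (-0.25) and in DESeq2 (-0.41, adjusted p = 0.0791). Of 26 effectors on endosomes and lysosomes measured of 27 listed, 5 were higher and 7 lower in BSA (46.2% called, against 34.0% of all genes, median -0.048). In Taxinine against BSA none was higher and 4 were lower (15.4% called, against 6.98% of all genes), with 2 to 4 lower when 1 library was left out. Rilpl2, a relative of the RAB7 effector RILP that binds RAB proteins, was at 25.4, 26.7 and 28.5 CPM in Control, at 91.0, 86.2 and 96.3 in BSA and at 63.8, 62.8 and 62.5 in Taxinine. The 3 groups were far apart, by 1.76 ± 0.06 with antigen (adjusted p = 1.14e-26) and by -0.53 ± 0.06 between Taxinine and BSA (adjusted p = 5.46e-09). The RAB5 effector Rabep1 was higher with antigen (0.30 ± 0.05) and lower in Taxinine than in BSA (-0.16 ± 0.05), as was Ehbp1l1 (0.26 ± 0.05 and -0.21 ± 0.05), while Rab11fip5, a RAB11 effector, not called with antigen (adjusted p = 0.102), was lower in Taxinine than in BSA (-0.44 ± 0.11, adjusted p = 5.59e-03). With plain totals the antigen differences of Rabep1 (0.07) and Ehbp1l1 (0.04) were not called. In Taxinine against BSA, Rabep1 was lost without BSA replicate 2 (-0.12), Taxinine replicate 1 (-0.16) or Taxinine replicate 2 (-0.13). It was also lost with plain totals (-0.14, adjusted p = 0.0616) and with limma (-0.14, adjusted p = 0.052). Rab11fip5 was lost without Taxinine replicate 2 (-0.37). The RAB5 effector Rbsn fell with antigen (-0.48 ± 0.08). Of 13 effectors at the Golgi, 3 were higher and 3 lower in BSA (46.2% called, against 34.0% of all genes, median -0.065). Gcc1 was at 0.51 ± 0.06 and Tmf1 at -0.35 ± 0.06, and none was called in Taxinine against BSA.

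The 49 genes lie on 18 chromosomes. The exons of 29 share no 100-base word with another gene, and 7 genes share at least 15%: Rab43 (73.8%), Rab2b (52.0%), Rab4b (49.3%), Rab24 (39.9%), Rab20 (20.0%), Rab33b (17.6%) and Rab6a (16.4%). Rab43 and Rab4b share with a gene model on the same strand, the other 5 mainly with a gene on the opposite strand. The strand setting of the counting is not known here, so the counts of these 7 genes may include or lose reads of the neighbour. Exons of 31 RAB genes overlap with no other gene's exon on either strand.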

How the data were processed

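The authors deposited 2 tables for 9 mRNA libraries: whole-number read counts per gene and log2 expression values. Reads were aligned with STAR 2.7.0f to mm10 (GRCm38), and limma 3.11 was used, per the submitters' processing notes. No annotation, read counter or strand handling was given in the sources used here. By calculation, the deposited log2 values equal log2(CPM + 1) with plain library totals to within 5e-05, so they carry no TMM scaling. The deposited counts are named as TMM-normalised, yet they are whole numbers. TMM factors computed from them here still ranged from 0.94 to 1.11, so they were treated as unscaled counts. The RAB genes, role groups and gene lists were chosen with earlier results of these data known.

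The counts were fitted with edgeR 4.0.16 (R 4.3.3), TMM factors, 1 quasi-likelihood model over the 9 libraries with no replicate term, and Benjamini-Hochberg adjustment over 15109 genes at 0.05. The standard error is the size of the unshrunk coefficient divided by the square root of F. The procedure was tested on simulated data. Alternatives were other scalings, a low-count filter, a prior count of 2, the 6 libraries of a comparison, a replicate block, each library left out, limma 3.58.1 on the log2 values and DESeq2 1.42.0. Ratios of paralogs used counts plus 0.5, with 2 as the alternative chosen after seeing the data. Lengths, coordinates and shared 100-base words came from GENCODE M21, which holds 15106 of the identifiers, and promoters from RefSeq. Protein sequence features, planned, were not analysed here. The 3-count limits cover counting error only.

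Genes were named by rule: every RAB gene may be named; values per library are given for the 10 largest called rises and falls with antigen, every gene called with taxinine and 6 granule RABs; from each list, at most 4 genes with the smallest p in each comparison. Egr2 and Nr4a3 were named from earlier results. Rab1b, Rab8b, Rab14 and Rab17 were given values per library after these were seen. Markers of other cells were listed from general knowledge. Some genes of the lists are not reported here by name.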

Additional observations from a re-analysis of the deposited data

How the results depend on the processing

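Counts of calls against Control moved with scaling, and those of Taxinine against BSA with single libraries. In BSA against Control, 5 RAB genes were called higher and 26 lower with plain library totals and with limma, against 12 and 10, and 7977 and 7852 genes of all were called against 5144. In Taxinine against Control, 5 and 6 RAB genes were called higher and 26 lower under each, against 10 and 11. Over all genes, plain totals called 1105 higher and 6281 lower there, and limma 1122 and 6314, against 2407 and 2601. In Taxinine against BSA, 1 RAB gene was called higher with plain totals, with limma and with the 6 libraries of the comparison only, and 5 were called lower with those 6 libraries, against 0 and 3. Over all genes, plain totals called 646 higher and 476 lower there, and limma 710 and 489, against 432 and 623. The construction of plain totals and of the log2 table, without TMM, shifts all genes; the other causes were not tested.

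Leaving out 1 library gave 9 to 13 RAB genes higher and 8 to 11 lower in BSA against Control (4454 to 5070 genes in all), 0 to 1 and 0 to 5 in Taxinine against BSA (616 to 1281) and 8 to 12 and 8 to 11 in Taxinine against Control (4221 to 5130). Without Taxinine replicate 1, 2 or 3 the count over all genes was 659, 616 and 699, against 1055. In Taxinine against BSA the lower RAB count was 0 without Taxinine replicate 2, 1 without Taxinine replicate 1 or BSA replicate 1, and 5 without Control replicate 1 or 2. With the replicate block the counts were 12 and 10, 0 and 4 (Rab27b added, adjusted p = 0.0453), and 11 and 11. Counts over all genes with the block are not given here. Deviations from group means correlated at -0.26 to 0.15 between same-numbered libraries and at -0.28 to 0.30 between others. With so few libraries per group this cannot settle whether equal numbers mark paired samples, and the labels do not say.

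Over all 49 RAB genes, plain totals and limma each turned 19 signs in BSA against Control and 13 in Taxinine against Control, all from higher to lower. Among the called and granule genes these were, in BSA against Control, Rab14 (-0.0861 and -0.0875), Rab27a (-0.13 and -0.12), Rab3d (-0.17 and -0.16), Rab5c (-0.0845 and -0.0842) and Rab8b (-0.0902 and -0.0901), and, in Taxinine against Control, Rab11b (-0.0362 and -0.0336), Rab14 (-0.058 and -0.0568) and Rab27b (-0.10 in both). In Taxinine against BSA, Rab44 ranged from -0.0796 without BSA replicate 1 to 0.0071 without BSA replicate 2 and was at 0.0006 with limma. In Taxinine against Control, Rab3d ranged from -0.0796 without Control replicate 1 to 0.0066 without Control replicate 2. Of the calls, 12 of 22 in BSA against Control, 0 of 3 in Taxinine against BSA and 11 of 21 in Taxinine against Control held under every alternative run. Depth limits genes such as Rab4b, at 9 to 40 counts per library.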
